A study of Mus musculus with 12 samples.

Results

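Complement and acute-phase genes are described here in 2 mouse fibroblast lines that differ in p53, grown with or without glutamine. The members were 9 genes chosen by name from the 19439 gene entries of the deposited expression table: C3, Ptx3, Saa3, Hp, Serpina3n, C1s1, C1ra, Cfb and C4b. They were chosen because C3 and Ptx3 separate the 2 lines, so differences between the lines are given below as descriptions, with no test for any member. The comparisons of medium were not the ground of that choice and were tested, except where a member passed the filter on low values only through the other line.

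Complement is a set of blood and tissue proteins that mark microbes and damaged cells for removal. The C1 complex, in which the protease C1r activates the protease C1s, starts the classical pathway by cutting C4 and C2. The pathways meet at C3, which is cut and attached to surfaces, and factor B, the product of Cfb, carries the amplification loop of the alternative pathway. Acute-phase proteins are secreted during inflammation, mostly by the liver, under the control of interleukin 6, STAT3, C/EBP and NF-kB factors. Haptoglobin (Hp) binds free hemoglobin, serum amyloid A3 (Saa3) is an inducible amyloid A made outside the liver too, and Serpina3n inhibits serine proteases. Pentraxin 3 (Ptx3) is a secreted pattern-recognition protein made by fibroblasts and myeloid cells, and it binds C1q. Fibroblasts are a known local source of several complement proteins.

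The samples were 3T3 cells, mouse embryonic fibroblasts immortalised by repeated passage. The 4 groups were p53 -/- (p53-null) cells without glutamine, p53-null cells in complete medium, wild-type p53 (WT) cells without glutamine and WT cells in complete medium, with 3 libraries each and 12 in all. The cells of each group spent 18 h in DMEM that held 2 mM glutamine (complete) or none (glutamine-free), and the standard growth medium held 25 mM glucose. Each genotype is 1 line, so a difference between genotypes is a difference between these lines, and whether the 3 libraries of a group are separate cultures is not stated. P-values therefore measure the spread between libraries, which may be technical.

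Values are RPKM, read counts scaled by transcript length and by library size, which can be compared between genes per length. Read totals were not given, and the steps between low values gave an estimated depth of 37.7 to 46.9 M reads (M, mega) per library. Within groups, libraries correlated across genes at r = 0.998 to 0.999, as a description. Trp53 held 27.9 to 35.2 RPKM in p53-null libraries and 57.8 to 113.9 RPKM in WT libraries, and these gene totals are not split by exon. Fibroblast markers were present in both lines, with 9 of 11 at or above 1 RPKM in each group. The epithelial keratin gene Krt18 held 59.1 to 76.6 RPKM in p53-null libraries and at most 0.0183 RPKM in WT libraries, so the lines also differ in a gene that is not typical of fibroblasts. Of 6 epithelial markers only Krt18 and Krt19 reached a mean of 1 RPKM, in p53-null cells alone. Epcam, Cdh1, Krt8 and Cldn4 stayed under 1 RPKM in each group. In complete medium Cdh1 averaged 0.0630 RPKM in p53-null cells and 0.0965 RPKM in WT cells.

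The promoters of the 5 detected members with an entry in the RefSeq table (GRCm38.p6, the assembly that mm10 names) are printed because their levels differed by line, by medium or by both. Hp, Cfb and C4b had no entry. Each window runs from 250 bases before to 50 bases after the start annotated in RefSeq. For C1ra, Ptx3 and Saa3 that start differs from the start of the GENCODE gene positions given below. Most of the C1ra window lies inside the GENCODE gene, which begins at 124512405. Capitals mark matches to the C/EBP, NF-kB or STAT letters on either strand.
C3, chr17:57228087-57228386, minus strand: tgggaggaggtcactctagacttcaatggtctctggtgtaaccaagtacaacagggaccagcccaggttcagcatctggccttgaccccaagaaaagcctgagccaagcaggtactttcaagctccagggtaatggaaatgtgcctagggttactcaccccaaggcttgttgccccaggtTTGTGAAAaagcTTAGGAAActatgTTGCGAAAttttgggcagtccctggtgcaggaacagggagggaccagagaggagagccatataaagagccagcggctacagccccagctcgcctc
Ptx3, chr3:66219637-66219936, plus strand: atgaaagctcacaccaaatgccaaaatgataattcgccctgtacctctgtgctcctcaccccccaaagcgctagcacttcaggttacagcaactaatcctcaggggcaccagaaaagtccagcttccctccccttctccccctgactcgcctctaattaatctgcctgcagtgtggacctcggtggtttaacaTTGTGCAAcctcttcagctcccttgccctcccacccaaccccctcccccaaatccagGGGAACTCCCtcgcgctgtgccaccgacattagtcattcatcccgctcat
Saa3, chr7:46715627-46715926, minus strand: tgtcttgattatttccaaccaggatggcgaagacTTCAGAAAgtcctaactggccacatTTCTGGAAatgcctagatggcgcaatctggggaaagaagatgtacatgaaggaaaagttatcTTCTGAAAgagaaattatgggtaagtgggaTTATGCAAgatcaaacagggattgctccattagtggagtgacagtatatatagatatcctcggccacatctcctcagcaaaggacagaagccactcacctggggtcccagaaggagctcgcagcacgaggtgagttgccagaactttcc
C1ra, chr6:124512371-124512670, plus strand: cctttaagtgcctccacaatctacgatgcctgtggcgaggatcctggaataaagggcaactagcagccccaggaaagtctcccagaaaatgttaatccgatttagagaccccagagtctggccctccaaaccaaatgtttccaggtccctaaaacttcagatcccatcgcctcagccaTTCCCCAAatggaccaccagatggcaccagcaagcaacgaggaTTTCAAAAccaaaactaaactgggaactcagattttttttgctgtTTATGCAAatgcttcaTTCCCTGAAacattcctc
C1s1, chr6:124542310-124542609, minus strand: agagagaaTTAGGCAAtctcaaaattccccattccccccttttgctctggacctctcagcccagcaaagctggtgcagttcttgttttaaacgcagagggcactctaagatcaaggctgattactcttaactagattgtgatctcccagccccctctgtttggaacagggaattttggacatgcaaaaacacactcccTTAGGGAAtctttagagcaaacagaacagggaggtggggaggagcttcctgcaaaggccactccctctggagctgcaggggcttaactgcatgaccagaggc

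The letters searched were TTNNGNAA for C/EBP, TTCNNNGAA for STAT and, for NF-kB, GGG and CC with TT between them, set off by any 2 bases after GGG and by any 1 base before CC. All 6 members with a promoter in the table, Serpina3n included, held a C/EBP match, as did 40.7% of 32851 promoters of the same length. In C3 the match TTGCGAAA began 45 bases before the start, in Ptx3 TTGTGCAA began 57 bases before it, and in Saa3 TTATGCAA began 99 bases before it. In C1ra the same TTATGCAA began 17 bases after the RefSeq start. An NF-kB match was found in Ptx3 (printed as GGGAACTCCC, at the start, read on the other strand) and Serpina3n, against 4.79% of promoters, and a STAT match in C1ra (TTCCCTGAA, 33 bases after the start), against 8.3%. The C1s1 window held 2 C/EBP matches, and no printed window had matches of different motifs that overlapped. These matches describe the letters and do not show binding.

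C3 and Ptx3 were abundant in the WT line and at about 2 RPKM (Ptx3) or under 1 RPKM (C3) in the p53-null line. Ptx3 (chromosome 3, 66219910 to 66225805, plus strand) held 2.03, 2.00 and 2.10 RPKM in p53-null cells without glutamine, against 381.6, 372.2 and 373.8 RPKM in WT cells without glutamine. In complete medium it held 2.04, 1.93 and 2.05 RPKM in p53-null cells and 394.3, 393.5 and 389.6 RPKM in WT cells. The libraries of the 2 lines lay far apart in both media. The WT mean was 184-fold higher without glutamine and 196-fold higher in complete medium, and Ptx3 ranked 97 of 19439 entries by level in WT cells in complete medium.

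C3 (chromosome 17, 57203970 to 57228136, minus strand), the central complement protein, held 0.506, 0.458 and 0.469 RPKM in p53-null cells without glutamine and 26.9, 26.6 and 27.0 RPKM in WT cells without glutamine. In complete medium the values were 0.545, 0.610 and 0.572 RPKM in p53-null cells and 120.0, 120.4 and 120.3 RPKM in WT cells. The lines did not overlap, and the WT mean was 56.3-fold higher without glutamine and 209-fold higher in complete medium. By the log2 difference between the lines in complete medium, p53-null minus WT, Ptx3 ranked 3 and C3 ranked 7 from the lowest of 11461 tested genes. The members were chosen because these genes separate the lines, and C3 passed the filter only through the WT libraries. Nothing is therefore read from these ranks.

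**Figure D1:**
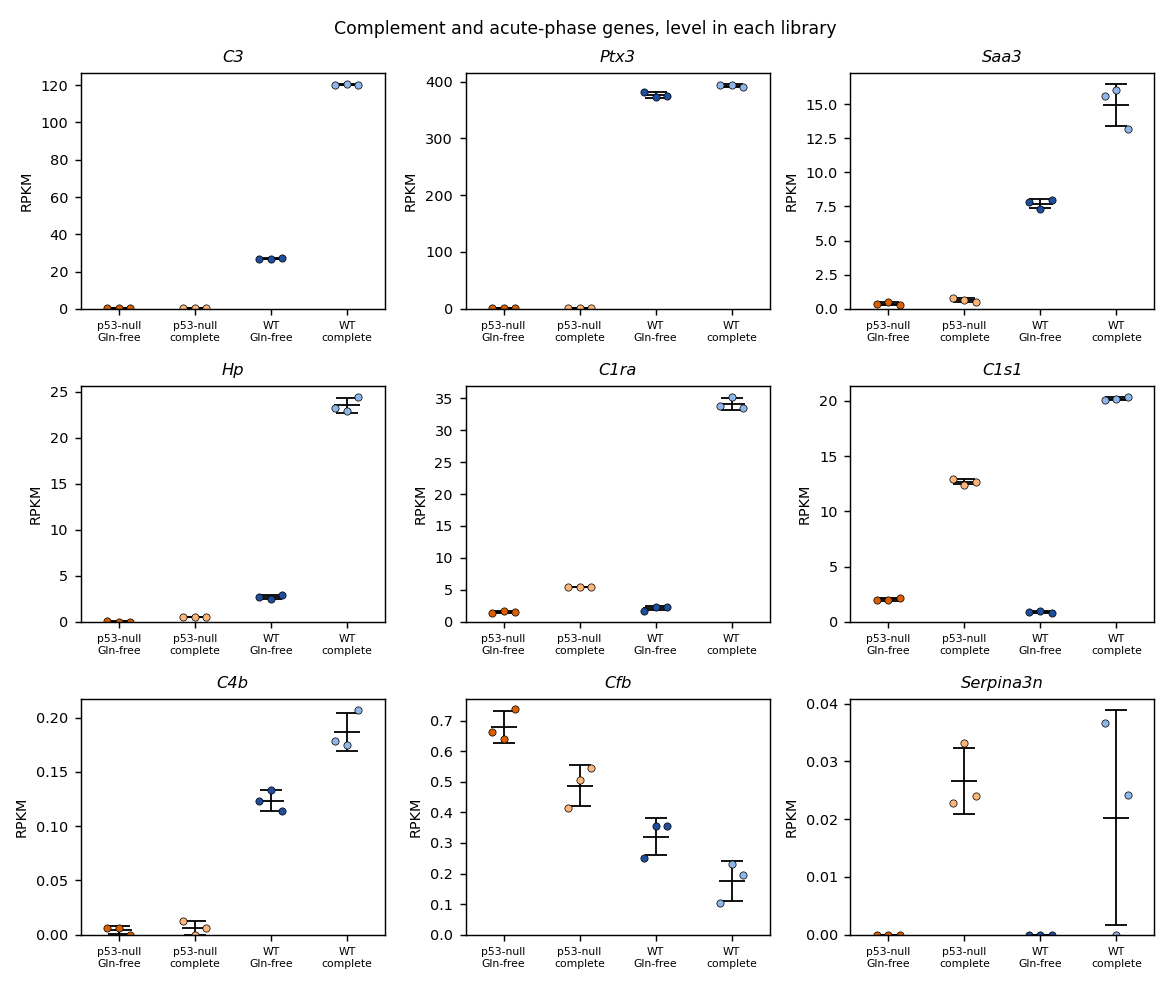
Level in RPKM (vertical axis, a separate linear scale from 0 in each panel) of the 9 members in 12 libraries; each point is 1 library and bars show the mean and SD of 3 (Gln, glutamine). C3, Ptx3, Saa3 and Hp stand higher in WT libraries in both media, C1ra and C1s1 are highest in WT cells in complete medium, and C4b, Cfb and Serpina3n stay below 1 RPKM.

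Saa3 and Hp were also mainly WT transcripts. Saa3 (chromosome 7, 46711998 to 46715700, minus strand) held 0.376, 0.492 and 0.291 RPKM in p53-null cells without glutamine and 7.79, 7.33 and 7.99 RPKM in WT cells without glutamine. In complete medium it held 0.760, 0.643 and 0.469 RPKM in p53-null cells and 15.6, 16.0 and 13.2 RPKM in WT cells. The lines did not overlap in either medium, with the WT mean 19.9-fold higher without glutamine and 23.9-fold higher in complete medium.

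Hp (chromosome 8, 109575128 to 109579172, minus strand) held 0.0330, 0 and 0 RPKM in p53-null cells without glutamine and 2.66, 2.44 and 2.87 RPKM in WT cells without glutamine. In complete medium it held 0.494, 0.460 and 0.537 RPKM in p53-null cells and 23.2, 22.9 and 24.4 RPKM in WT cells, a 47.3-fold higher WT mean. Hp was therefore detected in p53-null cells in complete medium and was listed at 0 in 2 of 3 p53-null libraries without glutamine.

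Over the 9 members, 6 (C3, Ptx3, Saa3, Hp, C1ra and C4b) lay below all WT libraries of the same medium in every p53-null library, in both media. The same held for 19.6% of all entries, and nothing is read from this count, since the contrast chose the members.

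The genes of the C1 proteases responded to medium in both lines. C1ra (chromosome 6, 124512405 to 124523443, plus strand) encodes C1r. It held 1.32, 1.63 and 1.58 RPKM in p53-null cells without glutamine and 5.41, 5.39 and 5.44 RPKM in complete medium in that line. In WT cells it held 1.74, 2.30 and 2.25 RPKM without glutamine and 33.8, 35.2 and 33.5 RPKM in complete medium. WT cells in complete medium stood apart from the other 3 groups, and the 2 glutamine-free groups lay closest together.

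C1s1 (chromosome 6, 124530345 to 124542359, minus strand) encodes C1s. It held 1.93, 1.97 and 2.18 RPKM in p53-null cells without glutamine, while the p53-null libraries of complete medium held 12.9, 12.4 and 12.7 RPKM. In WT cells it held 0.887, 1.004 and 0.787 RPKM without glutamine and 20.1, 20.2 and 20.4 RPKM in complete medium. The order of the lines turned with the medium: p53-null libraries were the higher ones without glutamine, and WT libraries were the higher ones in complete medium, with no overlap in either.

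Per length, C1ra stood below C1s1 in each p53-null library and above it in each WT library. The ratio of C1ra to C1s1 was 0.686 to 0.825 in p53-null cells without glutamine, 0.419 to 0.433 in p53-null cells in complete medium, 1.97 to 2.86 in WT cells without glutamine and 1.64 to 1.75 in WT cells in complete medium.

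Glutamine withdrawal lowered C1ra and C1s1 in both lines and lowered C3, Hp and Saa3 in WT cells. In WT cells C1s1 fell to a mean of 0.893 ± 0.109 RPKM without glutamine, against 20.2 ± 0.156 RPKM in complete medium (SD, n = 3 each), a log2 difference of -3.49 ± 0.042 (SE, adjusted p = 2e-16). C1ra fell to 2.10 ± 0.308 RPKM without glutamine, against 34.2 ± 0.936 RPKM in complete medium, a log2 difference of -3.51 ± 0.064 (adjusted p = 9.7e-15). Among 11461 tested genes these were the ranks 26 (C1ra) and 28 (C1s1) from the largest fall. Hp, at 2.66 ± 0.214 RPKM without glutamine and 23.5 ± 0.774 RPKM in complete medium, changed by -2.75 ± 0.043 (adjusted p = 2.4e-15). C3, at 26.9 ± 0.209 RPKM without glutamine and 120.2 ± 0.207 RPKM in complete medium, changed by -2.12 ± 0.023 (adjusted p = 7.5e-17). The libraries of the 2 media did not overlap for these genes. Saa3, at 7.70 ± 0.339 RPKM without glutamine and 14.9 ± 1.53 RPKM in complete medium, changed by -0.87 ± 0.079 (adjusted p = 2.2e-07).

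Ptx3 hardly moved in WT cells. It averaged 375.9 ± 5.04 RPKM without glutamine and 392.5 ± 2.54 RPKM in complete medium, a log2 difference of -0.06 ± 0.019 (adjusted p = 0.0082, and 0.065 with quantile normalization). The libraries of the 2 media did not overlap, and the WT complete mean was 1.04 times the WT glutamine-free mean.

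All 6 tested members were called lower in WT cells, where 44.0% of all tested genes were called lower, 46.0% higher and 90.1% in either direction. A log2 difference of -1 or lower was reached by 4 of them, C1ra, C1s1, Hp and C3, and by 12.9% of tested genes. The remaining 3 members did not pass the filter of at least 1 RPKM in at least 3 libraries and were not tested. A gene with a high level in 1 group passes that filter more readily, so these counts describe the members and support nothing further. In these bulk samples, fewer expressing cells and less RNA per cell cannot be told apart.

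Markers of fibroblasts moved in the same libraries. All 9 tested of 11 fibroblast markers were called lower in WT cells without glutamine, at a median log2 difference of -2.84 against 0.01 for all tested genes, and their summed level was 1028 to 1036 RPKM without glutamine and 4125 to 4145 RPKM in complete medium. In p53-null cells 8 of these 9 were called lower and 1 higher, at a median log2 difference of -1.13 against 0.08 for all tested genes. Of all tested genes 44.0% were called lower in WT cells and 32.0% in p53-null cells, where 82.0% were called in either direction. The marker sums in p53-null cells were 1432 to 1458 RPKM without glutamine and 2503 to 2540 RPKM in complete medium. The part of these markers in the result was not tested. Of the 8 hepatocyte markers 6 were in the table, none reached 1 RPKM in any group, and Alb was listed at 0 in all 3 libraries of each WT group. Of the 10 macrophage and leukocyte markers 8 were in the table, and their sum was 4.57 to 5.07 and 8.89 to 9.55 RPKM in p53-null cells without glutamine and in complete medium, and 2.00 to 2.14 and 5.49 to 5.77 RPKM in WT cells without glutamine and in complete medium. Cd14 and Cd68 were the only 2 of them that passed the filter. The sum of 5 adipocyte markers was 1.63 to 1.797 and 3.42 to 3.95 RPKM in p53-null cells without and with glutamine, and 1.64 to 2.19 and 23.7 to 25.6 RPKM in WT cells without and with glutamine. Fabp4 alone held 22.7 ± 1.04 RPKM in WT cells in complete medium. Pparg was higher in p53-null cells there (3.54 ± 0.270 against 1.69 ± 0.232 RPKM), and Adipoq, Plin1 and Cidec stayed under 1 RPKM in each group. The sum of 5 endothelial markers was 1.24 to 1.58 RPKM in p53-null libraries and at most 0.149 RPKM in WT libraries. Kdr made up most of the p53-null sum (1.26 ± 0.145 and 1.25 ± 0.0887 RPKM without and with glutamine), and the others stayed under 1 RPKM.

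In p53-null cells the C1 proteases fell as well. C1s1 averaged 2.03 ± 0.135 RPKM without glutamine and 12.7 ± 0.241 RPKM in complete medium, a log2 difference of -2.18 ± 0.042 (adjusted p = 1.8e-13), and ranked 15 from the largest fall of all tested genes in this line. C1ra averaged 1.51 ± 0.164 RPKM without glutamine and 5.41 ± 0.0258 RPKM in complete medium and changed by -1.36 ± 0.064 (adjusted p = 4.3e-10).

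Hp, C3 and Saa3 stayed under 1 RPKM in all 6 p53-null libraries and passed the filter only through the WT libraries, so their values in this line are given as a description, with no test. Hp averaged 0.0110 ± 0.0191 RPKM without glutamine and 0.497 ± 0.0388 RPKM in complete medium, a log2 difference of -0.57 with a pseudocount of 1 and -2.44 with one of 0.1. C3 averaged 0.477 ± 0.0251 RPKM without glutamine and 0.576 ± 0.0325 RPKM in complete medium, a log2 difference of -0.09, or -0.23 with a pseudocount of 0.1. Saa3 averaged 0.387 ± 0.101 RPKM without glutamine and 0.624 ± 0.146 RPKM in complete medium, and its libraries overlapped. Ptx3, at 2.05 ± 0.0513 RPKM without glutamine and 2.01 ± 0.0653 RPKM in complete medium, did not pass the test (log2 difference 0.02 ± 0.019, adjusted p = 0.36), and the sign of its difference turned with median centring (-0.09, adjusted p = 0.0013).

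C1ra and C1s1 were thus the 2 members called lower at levels over 1 RPKM in p53-null cells, where 32.0% of tested genes were called lower and 82.0% in either direction. Over all genes, 5732 of 11461 were called higher and 3671 lower, and with median centring 4525 higher and 4984 lower. Both reached a log2 difference of -1 or lower, as did 2.03% of tested genes. Both were called lower in each line, as were 23.0% of tested genes.

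**Figure D2:**
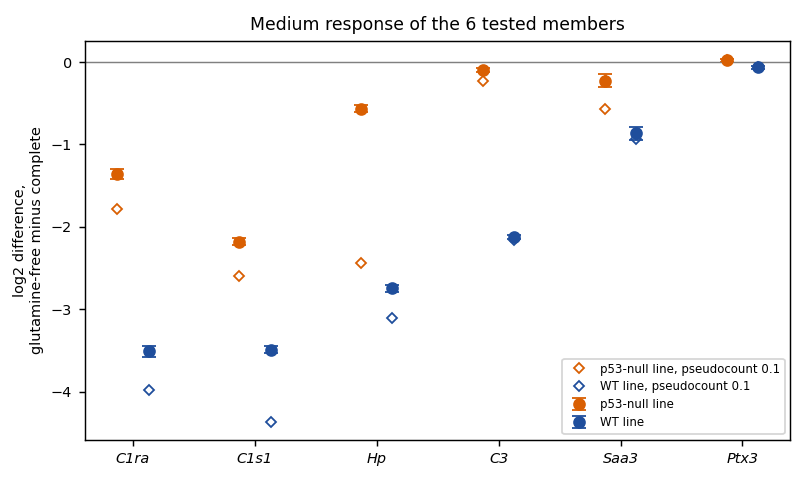
Log2 difference, glutamine-free minus complete medium (vertical axis), of the 6 tested members in the p53-null line and the WT line; filled circles use log2(RPKM + 1) with bars for the SE, and open diamonds use a pseudocount of 0.1. C1ra and C1s1 lie below -1 in both lines, Ptx3 lies near 0 in both (in p53-null cells its sign turns with median centring), and Hp in p53-null cells moves from -0.57 to -2.44 with the pseudocount.

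The responses of the 2 lines to glutamine withdrawal differed for C1ra and C1s1, by a test of the difference itself (p53-null minus WT, in which a positive value means a smaller fall on the log2(RPKM + 1) scale in p53-null cells). The difference was 2.15 ± 0.090 (SE) for C1ra (adjusted p = 1.1e-10) and 1.31 ± 0.059 for C1s1 (adjusted p = 2.3e-10). Of all tested genes 84.9% were called in this comparison, 46.4% with a positive and 38.4% with a negative difference, so a call alone does not set a gene apart.

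For the other members the difference is a description, with no test. It equals the difference of the 2 contrasts between the lines, on which C3 and Ptx3 were chosen, and C3, Hp and Saa3 were too low in p53-null cells to fall far on this scale. It was 2.03 for C3. For Hp it was 2.18 with a pseudocount of 1 and 0.66 with one of 0.1, and no direction is read from it, since 2 of 3 p53-null libraries without glutamine were listed at 0. For Saa3 it was 0.64 with a pseudocount of 1 and 0.37 with one of 0.1. For Ptx3 it was 0.08, with the sign turned by median centring (-0.02).

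C4b, Cfb and Serpina3n stayed below 1 RPKM in each of the 12 libraries. Cfb (chromosome 17, 34856374 to 34862518, minus strand), for factor B, held 0.640 to 0.740 RPKM in p53-null cells without glutamine, 0.415 to 0.544 RPKM in complete medium in the same line, 0.251 to 0.357 RPKM in WT cells without glutamine and 0.102 to 0.230 RPKM in WT cells in complete medium. Its 4 groups did not overlap, and its order was the reverse of that of C3. C4b (chromosome 17, 34728380 to 34743882, minus strand), for the complement component cut by C1s, held at most 0.0126 RPKM in p53-null libraries, 0.114 to 0.133 RPKM in WT cells without glutamine and 0.175 to 0.207 RPKM in WT cells in complete medium. At the estimated depth 1 read is worth 0.00397 to 0.00493 RPKM of C4b, so the p53-null values are of the order of single reads. Serpina3n (chromosome 12, 104406729 to 104414329, plus strand) held 0 RPKM in all 6 glutamine-free libraries and at most 0.0366 RPKM in the 6 complete-medium libraries, where 3 reads are worth 0.0310 to 0.0386 RPKM.

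Some members share sequence with neighbouring copies. Of the 50-base stretches in the longest annotated transcript of C1ra, 50.8% also occur in transcripts of C1rb or Gm18840, and of those of C1s1 39.0% occur in C1s2 or Gm16567. For C4b 35.2% occur in C4a, and for Cfb 81.4% occur in Gm20547, which is annotated across Cfb and its neighbour C2. For C3, Ptx3 and Hp the share was 0.0%, for Saa3 4.6% and for Serpina3n 6.9%. Gm16567 lies under 18.4% of the C1s1 exon length in antisense, and the libraries carry no strand information. Values of C1ra, C1s1, C4b and Cfb are therefore uncertain to the extent that reads were split between copies, and how such reads were assigned is not stated.

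C1ra and C1s1 lie tail to tail in a cluster on chromosome 6 that also holds C1rl, C1rb and C1s2. C1rl, a C1r-like protease gene 1761 bases from C1ra, held 1.44 ± 0.0245 RPKM in p53-null cells without glutamine and 3.06 ± 0.225 RPKM in complete medium in that line. In WT cells it held 0.530 ± 0.0403 RPKM without glutamine and 6.06 ± 0.247 RPKM in complete medium. Its log2 difference on withdrawal was -0.73 ± 0.042 in p53-null cells (adjusted p = 3.1e-09) and -2.21 ± 0.042 in WT cells (adjusted p = 1.5e-14), so the order of the 4 groups was that of C1s1. The copies C1rb and C1s2 reached at most 0.268 and 0.187 RPKM in any library.

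**Figure D3:**
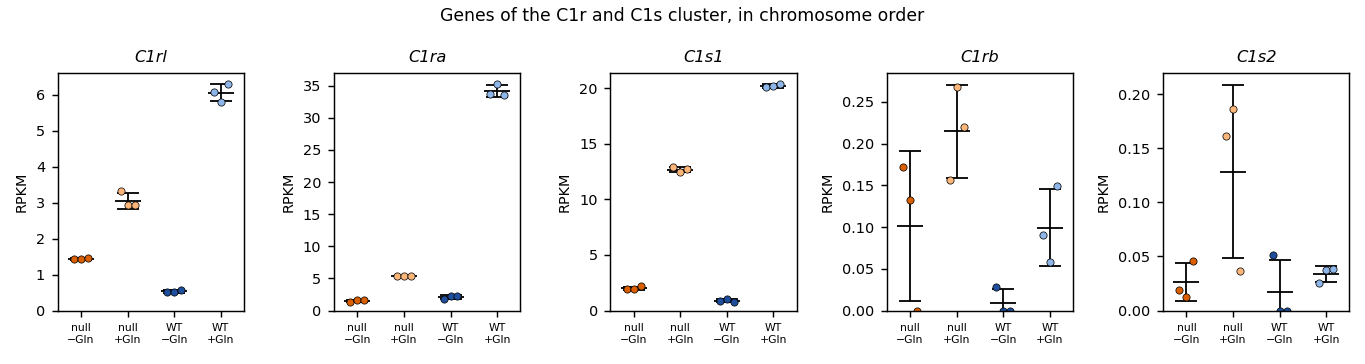
Level in RPKM (vertical axis, a separate linear scale from 0 in each panel) of 5 genes of the C1r and C1s cluster in chromosome order, in p53-null (null) and WT cells without (−Gln) and with (+Gln) glutamine; each point is 1 library, and bars show the mean and SD of 3. C1rl, C1ra and C1s1 are highest in WT cells in complete medium, and C1rb and C1s2 reach at most 0.268 and 0.187 RPKM.

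Beyond the members, 105 of 125 other genes of complement, the acute phase and its induction were in the table and 54 were tested. Few of the other complement genes passed the filter: 3 of 17 initiation genes, 2 of 9 alternative or terminal genes, 5 of 15 regulators and 1 of 9 receptors. Masp1, a protease of the lectin pathway, averaged 6.70 ± 0.0847 against 5.73 ± 0.311 RPKM without and with glutamine in p53-null cells (log2 difference 0.20 ± 0.047, adjusted p = 0.0018). In WT cells Masp1 averaged 1.18 ± 0.118 RPKM without glutamine and 4.15 ± 0.231 RPKM with it (-1.24 ± 0.047, adjusted p = 1.6e-11). The scavenger collectin gene Colec12 fell in both lines, by 0.64 ± 0.026 on the log2 scale in p53-null cells (adjusted p = 1.1e-10) and by 1.27 ± 0.026 in WT cells (adjusted p = 3.2e-14). Properdin (Cfp), which stabilises the alternative convertase, rose in both, by 0.82 ± 0.053 in p53-null cells (adjusted p = 9e-09) and 0.34 ± 0.053 in WT cells (adjusted p = 4.6e-05).

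Of the complement regulators, Cr1l was higher in p53-null than in WT cells in complete medium (log2 difference 1.72 ± 0.035, adjusted p = 3.1e-14). Cd55, for a membrane inhibitor of the convertases, was listed above 0 in p53-null libraries alone: it held 0.762 ± 0.0779 and 4.02 ± 0.341 RPKM in p53-null cells without and with glutamine and was listed at 0 in all 6 WT libraries. Cr1l, for the rodent membrane regulator Crry, was 23.6 ± 1.05 and 19.3 ± 0.120 RPKM in p53-null cells and 13.9 ± 0.328 and 5.14 ± 0.266 RPKM in WT cells without and with glutamine, and it rose by 1.28 ± 0.035 in WT cells (adjusted p = 5.3e-13).

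The other acute-phase genes that passed the filter were all lower in p53-null than in WT cells. All 6 of 6 tested were called lower in both media, where 40.0% of tested genes were called lower without glutamine and 42.5% in complete medium. Steap4 is among them only because it passed the filter in WT cells in complete medium, so it had to differ, and nothing is read from this count. The list had 30 genes, of which 22 were in the table. In complete medium ceruloplasmin (Cp) averaged 1.27 ± 0.0571 RPKM in p53-null cells and 225 ± 1.84 RPKM in WT cells (log2 difference -6.64 ± 0.025, adjusted p = 1e-20), and lipocalin 2 (Lcn2), which binds bacterial siderophores, averaged 1.60 ± 0.112 RPKM in p53-null cells and 118.0 ± 0.652 RPKM in WT cells (-5.52 ± 0.047, adjusted p = 9.5e-18). Steap4, a metalloreductase gene induced in inflammation, was 0.00970 ± 0.00337 RPKM in p53-null cells of that medium and 32.1 ± 0.775 RPKM in WT cells.

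Withdrawal in the WT line lowered 4 of these 6 and raised 2. Of all tested genes 44.0% were called lower and 46.0% higher in that comparison. Steap4 is among the 4 and passed the filter only through WT cells in complete medium, so nothing is read from this count. Cp fell by 1.97 ± 0.025 on the log2 scale (adjusted p = 3.2e-16). Steap4 stayed at or under 0.811 RPKM in WT cells without glutamine. The metallothionein gene Mt2 held 435 ± 15.1 RPKM without glutamine and 146.5 ± 1.20 RPKM in complete medium in WT cells, a difference in the other direction. Saa1 and Saa2, the liver-type relatives of Saa3, reached at most 0.253 RPKM in any library.

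Of the inducing cytokines, Il6 was highest in WT cells in complete medium. It held 0.0387 to 0.0973 RPKM in p53-null cells without glutamine, 0.0208 to 0.131 RPKM in complete medium in the same line, 1.10 to 1.23 RPKM in WT cells without glutamine and 13.4 to 14.5 RPKM in WT cells in complete medium. In WT cells it changed by -2.77 ± 0.046 (log2 difference, adjusted p = 3.9e-15). It passed the filter only through the WT libraries, so its difference between the lines was not drawn on. Lif, of the same cytokine family, went up in WT cells on withdrawal, by 0.62 ± 0.038 (adjusted p = 2.6e-09). Of 5 tested cytokines 2 rose and 3 fell in WT cells, and 1 rose and 2 fell in p53-null cells, where 46.0% of all tested genes rose and 44.0% fell in WT cells and 5732 of 11461 rose and 3671 fell in p53-null cells.

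Receptor and kinase genes were counted in the same way. Of 14 tested receptors and kinases 8 rose and 3 fell in p53-null cells on withdrawal, and 2 rose and 8 fell in WT cells. Rises outnumbered falls in p53-null cells over all tested genes too (5732 against 3671), and in WT cells 46.0% rose and 44.0% fell. Il6st, for the shared signal-transducing receptor chain, averaged 32.2 ± 0.408 against 19.6 ± 0.250 RPKM without and with glutamine in p53-null cells and 76.0 ± 0.593 against 169.3 ± 0.0861 RPKM in WT cells. The difference of these responses was 1.84 ± 0.020 (adjusted p = 8.5e-16). Il1r1, the interleukin 1 receptor gene, averaged 3.60 ± 0.162 and 3.62 ± 0.199 RPKM without and with glutamine in p53-null cells, and 3.29 ± 0.115 and 16.1 ± 0.106 RPKM in WT cells (difference of responses 1.99 ± 0.052, adjusted p = 1.2e-12).

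Among the transcription factors, Cebpd showed the largest fall of the list in WT cells. Cebpd, for the C/EBP factor that rises in the acute phase, averaged 0.853 ± 0.104 and 1.22 ± 0.103 RPKM in p53-null cells without and with glutamine and 1.45 ± 0.0739 and 31.9 ± 0.860 RPKM in WT cells. Its WT response was -3.75 ± 0.046 (adjusted p = 2.7e-16). In p53-null cells Cebpd stood near 1 RPKM and could not fall far on this scale. The difference of responses, 3.49 or 3.90 with a pseudocount of 0.1, is therefore a description, with no test. Stat3 fell by 1.52 ± 0.029 (adjusted p = 1.8e-14) and its feedback target Socs3 by 1.63 ± 0.036 (adjusted p = 7.1e-14) in WT cells, while the NF-kB subunit gene Rela rose there, by 0.82 ± 0.021 (adjusted p = 2.3e-13). Rela was chosen after its values were seen.

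Nfkb2, for an NF-kB subunit, was higher in p53-null than in WT cells, and Nfkbia, for the inhibitor of NF-kB, was lower. Nfkb2 averaged 47.3 ± 0.870 and 27.9 ± 0.343 RPKM in p53-null cells without and with glutamine, against 2.01 ± 0.0923 and 2.59 ± 0.211 RPKM in WT cells. Its p53-null minus WT difference was 3.01 ± 0.037 in complete medium (adjusted p = 2.8e-16). Without glutamine Nfkbia averaged 8.77 ± 0.607 RPKM in p53-null cells and 31.5 ± 0.744 RPKM in WT cells (-1.74 ± 0.037, adjusted p = 6.4e-14). Of 18 tested factors and feedback genes, 10 rose and 6 fell in p53-null cells on withdrawal, and 7 rose and 11 fell in WT cells, against the same shares of all genes. Over the 54 tested genes of these lists, 22 rose and 23 fell in p53-null cells (median log2 difference 0.00, against 0.08 for all genes), and 16 rose and 33 fell in WT cells (median -0.40, against 0.01).

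**Figure D4:**
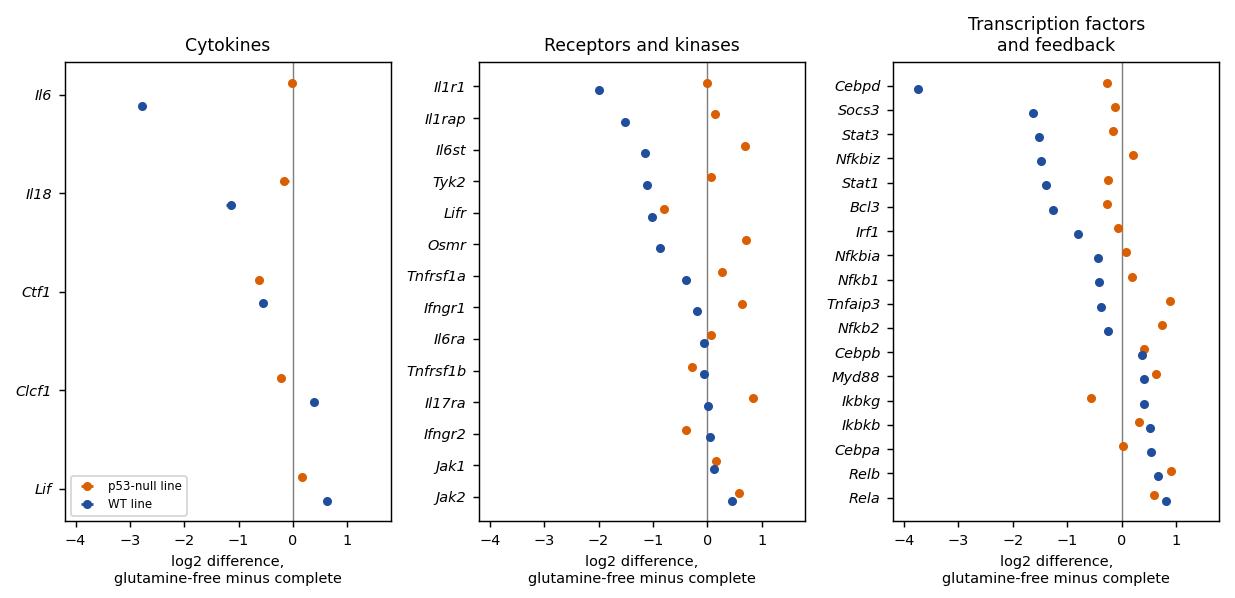
Log2 difference, glutamine-free minus complete medium (horizontal axis), of the tested cytokine genes, receptor and kinase genes, and transcription factor and feedback genes in the p53-null line (upper point of each pair) and the WT line; bars show the SE and are often smaller than the point. Cebpd and Il6 lie lowest in WT cells, at -3.75 and -2.77, while the p53-null points lie between -0.80 (Lifr) and 0.91 (Relb) in the 3 panels.

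The genes whose pattern over the 12 libraries was most like that of C3, by Pearson correlation of log2(RPKM + 1), were Clmp (r = 0.9998), Cyp7b1 (r = 0.9996), Osr1 (r = 0.9996), En1 (r = 0.9995) and Galnt13 (r = 0.9994). Clmp, for an adhesion molecule, held 0.0519 ± 0.0136 and 0.0720 ± 0.0192 RPKM in p53-null cells without and with glutamine and 5.99 ± 0.164 and 17.6 ± 0.670 RPKM in WT cells. Those most like Ptx3 were Serpine2, Mark1, Vgll3, Gdnf and Emp2, with r of 0.9994 to 0.9996. Serpine2, for a protease inhibitor, held 0.00360 ± 0.00624 and 0.0231 ± 0.0243 RPKM in p53-null cells and 58.8 ± 1.32 and 71.1 ± 0.895 RPKM in WT cells without and with glutamine. The libraries fall into 4 groups, so these correlations describe group levels and carry no p.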

How the data were processed

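Polyadenylated RNA of 12 libraries was sequenced, and the authors deposited 1 table of RPKM values per gene for them; per the submitters' processing notes, CASAVA 1.8, HISAT2 2.0.4, Partek and mm10 were used. How reads shared between genes were counted is not given in the sources used here. Read totals were not given, so depth was estimated from the spacing of low values. Only 53.4% to 57.1% of values under 0.5 RPKM came out whole within 0.05 of a read, so reads were not recovered and no count test was run.

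Entries that reached 1 RPKM in 3 or more libraries (11461 of 19439) were tested on log2(RPKM + 1) with limma 3.58.1 in R 4.3.3, in 1 model of the 4 group means over 12 libraries with a mean-variance trend. Log2 differences on this scale understate the change of genes near or below 1 RPKM. P-values were adjusted by Benjamini-Hochberg within each comparison, and adjusted p under 0.05 was called. The method was tested on simulated data with independent noise between libraries. That setting does not cover libraries of 1 culture, so it does not vouch for the p-values given here. The 5 comparisons were glutamine-free minus complete medium in each line, the difference of these responses (p53-null minus WT), and p53-null minus WT in each medium. Groups were taken from the sample labels.

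Members and lists were chosen with earlier results of these data known. From each wider list up to 3 called genes with the largest change were named per comparison, if the higher group mean was 2 RPKM or more and the groups did not overlap (not asked for the difference of responses), and 5 tested genes each were named by likeness to C3 and to Ptx3. Rela, Saa1, Saa2, C1rb and C1s2 lie outside that rule. Gene positions come from GENCODE M21 on GRCm38, and promoters from RefSeq on GRCm38.p6. The 22 alternatives varied pseudocount, filter, scaling, trend, libraries in the model and a replicate block, and left out each library in turn.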

Additional observations from a re-analysis of the deposited data

Results flagged for a closer look

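The response to glutamine withdrawal differed between the p53-null and WT lines for C1ra and C1s1, by the limma test of the difference of responses (p53-null minus WT, log2 scale). The difference was 2.15 for C1ra and 1.31 for C1s1, which fell in both lines and had group means of 5.41 and 12.7 RPKM in complete medium in the p53-null line. For the other members the difference is a description, with no test: 2.18 for Hp, 2.03 for C3, 0.64 for Saa3 and 0.082 for Ptx3. With a pseudocount of 0.1 the value for Hp was 0.66 and that for Saa3 was 0.37. The sign for Ptx3 turned with median centring. Hp, C3 and Saa3 were below 1 RPKM in p53-null cells in both media. Of all tested genes, 84.9% were called in this comparison, so a call alone does not set C1ra or C1s1 apart.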

How the results depend on the processing

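None of 298 counts of called genes under the 22 alternatives moved by over 1.5 times. Of 390 values of members for medium and for the difference of responses, 380 kept their direction and their side of the threshold, 7 lost the call, 1 gained it and 2 changed sign. Both sign changes were of Ptx3 with median centring, to -0.086 (adjusted p = 0.0013) for medium in p53-null cells and to -0.018 (adjusted p = 0.55) for the difference; over its alternatives adjusted p ran from 0.0013 to 0.95 and from 0.0013 to 0.55. Ptx3 in p53-null cells was called with quantile normalization (0.08, adjusted p = 0.0022). Saa3 in p53-null cells was not called without the filter (adjusted p = 0.05) or with quantile normalization (adjusted p = 0.058), nor without p53-null complete replicate 1 (adjusted p = 0.086) or p53-null glutamine-free replicate 3 (adjusted p = 0.079). C3 in p53-null cells was not called with quantile normalization (-0.03, adjusted p = 0.28). Leaving out 1 library left 4 to 5 members called in p53-null cells and 6 in the other comparisons. The main fit called 82.0% of all genes in p53-null cells, 90.1% in WT cells and 84.9% for the difference. The counts include Hp, C3 and Saa3 in p53-null cells, and these and Ptx3 for the difference. Those members were given as descriptions, so nothing is read from their calls or adjusted p. In the limma fit C1ra and C1s1 stayed called in p53-null cells throughout (adjusted p at most 2.6e-07 and 1.9e-08). Of 264 log2 differences of members between the lines 43 moved and 0 changed sign.

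Replicate numbers did not pair the samples (correlations of deviations -0.11 to 0.06). With a replicate block the fit called 6, 5 and 6 members for medium in WT cells, medium in p53-null cells and the difference. Without the block the counts were the same. They too include members given as descriptions, and nothing is read from them. The median log2 difference of all genes between the lines without glutamine was 0.10, moved to 0.23 by rescaling libraries to 1 sum and to -0.03 by median centring; for medium in p53-null cells it was 0.08 and -0.02 with median centring. Depth limits Serpina3n, C4b in p53-null cells and Hp in p53-null cells without glutamine to a few reads.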
